A study of Mus musculus with 18 samples.

Results

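The genes described here are 35 targets of the hypoxia response and genes of glycolysis, followed in mouse embryonic fibroblasts of 3 genotypes in 2 media. Each gene was read from the probe sets annotated to its symbol alone, and from the brightest of these over all 18 arrays. Of the 35 symbols, 32 had such a probe set, among 18194 genes that had one in all. The symbol Ero1l was found under its later name, Ero1a. Bnip3l had probe sets only in common with its pseudogene, and Gpi1 and Eno1 were not listed by name in the probe annotation used. Car9, a carbonic anhydrase of the cell surface, was left out as dim, with group means of 3.99 to 4.21 on the log2 scale against a limit of 4.65, so 31 of the 35 were tested.

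The cells were isolated at embryonic day 13.5 and passaged 2 to 3 times. They were wild type (WT), Atf4-/- or Cebpg-/-, so that each knockout lacked its gene and the WT cells carried no deletion that the labels name. All were plated for 24 h in growth medium and then kept for 3 h either in normal medium or in medium for amino acid deprivation (AAD), a supplemented Krebs-Ringer buffer. The 6 groups (WT, Atf4-/- and Cebpg-/- cells, each in normal and in AAD medium) had 3 Affymetrix Mouse Genome 430 2.0 arrays each. Mouse strain, the number of embryos behind a genotype, the glucose, serum and oxygen supplied and the supplements of the buffer are not given in the sources used here. AAD medium therefore stands for the change of medium as a whole. Whether the replicates were separate embryos or separate cultures is not labelled. The p-values therefore reflect the spread among these arrays alone, which may be technical.

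Hypoxia-inducible factor (HIF) is a pair of a labile alpha subunit, such as the product of Hif1a, and the stable subunit ARNT. Prolyl hydroxylases mark the alpha subunit for breakdown while oxygen is present, and in its absence HIF binds short ACGTG or GCGTG cores in promoters and enhancers. Its targets raise glucose uptake, nearly every step of glycolysis, lactate export, mitophagy and the secretion of angiogenic factors, and in fibroblasts many of them are also expressed at high levels in ordinary culture. ATF4 is the transcription factor whose protein is made when amino acids run short, and C/EBPγ, the product of Cebpg, is a leucine zipper protein that forms dimers with ATF4 on CEBP-ATF response elements.

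The promoters of these genes held the HIF core in a larger share than those of all tested genes. In the 250 bases before the start, ACGTG or GCGTG was searched on both strands, where a palindrome CACGTG counts on each strand. RefSeq promoters (GRCm38.p6) were held for 32 of the 35 symbols, Gpi1, Eno1 and Car9 included, and were not found for Ndrg1, Slc2a3 and Bnip3l. At least 1 of the cores lay in a promoter of 29 of the 32 genes (90.6%), against 58.8% of the 11038 tested genes with a promoter. ACGTG itself lay in 18 of the 32 (56.2%), against 24% of those genes. Counted per promoter, 37 of 48 (77.1%) held either core, against 53.2% of 14053. The median GC content was 60.0% in the set and 59.2% over the tested genes. The CEBP-ATF element, searched as TGATGNAA, was found in none of the 32 and in 2.45% of the tested genes. A match is a description of these letters and not a site of binding.

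Promoters of 5 members are printed 5′ to 3′ on the strand of the gene, with HIF cores of either strand in capitals. Ankrd37 and Bnip3 stood higher in both knockouts than in WT cells in normal medium, whereas Ldha and Pgk1 stood lower in Atf4-/- cells and Hk2 in both. They are shown because promoters of both kinds carry the core.
Ankrd37 (chr8:45999851-46000100, minus strand): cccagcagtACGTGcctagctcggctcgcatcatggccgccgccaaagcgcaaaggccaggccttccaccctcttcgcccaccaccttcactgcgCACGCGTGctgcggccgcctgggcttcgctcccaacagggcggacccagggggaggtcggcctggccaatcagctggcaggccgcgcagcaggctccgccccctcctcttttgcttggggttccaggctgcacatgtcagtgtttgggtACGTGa
Bnip3 (chr7:138909507-138909756, minus strand): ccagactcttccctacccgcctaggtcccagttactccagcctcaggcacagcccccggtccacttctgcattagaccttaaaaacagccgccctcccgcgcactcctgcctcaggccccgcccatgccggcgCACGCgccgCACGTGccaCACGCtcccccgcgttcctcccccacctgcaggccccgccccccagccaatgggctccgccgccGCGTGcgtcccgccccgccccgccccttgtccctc
Hk2 (chr6:82774455-82774704, minus strand): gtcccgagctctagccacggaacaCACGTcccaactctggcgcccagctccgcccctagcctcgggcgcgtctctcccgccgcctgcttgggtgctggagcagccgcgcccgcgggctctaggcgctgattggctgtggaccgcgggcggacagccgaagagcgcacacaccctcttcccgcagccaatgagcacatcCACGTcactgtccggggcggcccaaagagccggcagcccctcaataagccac
Ldha (chr7:46845554-46845803, plus strand): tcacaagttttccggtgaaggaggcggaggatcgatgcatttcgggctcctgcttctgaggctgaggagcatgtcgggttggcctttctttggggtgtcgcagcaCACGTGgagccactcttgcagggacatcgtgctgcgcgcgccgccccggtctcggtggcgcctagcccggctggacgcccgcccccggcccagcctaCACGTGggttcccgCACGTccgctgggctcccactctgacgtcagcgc
Pgk1 (chrX:106186850-106187099, plus strand): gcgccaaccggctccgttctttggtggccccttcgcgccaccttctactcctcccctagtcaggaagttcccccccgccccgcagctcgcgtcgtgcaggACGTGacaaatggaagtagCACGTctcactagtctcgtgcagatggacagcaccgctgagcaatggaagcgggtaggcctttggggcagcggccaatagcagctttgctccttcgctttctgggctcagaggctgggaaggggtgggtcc

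Values of levels are deposited log2 values, and changes are log2 differences ± SE with n = 3 arrays a group. A member was called at an adjusted p under 0.05 in limma, with Benjamini-Hochberg adjustment over 13728 genes. The median residual SD over these genes was 0.109. As a check of the labels, Atf4 in normal medium read 12.10 ± 0.07 in WT and 6.50 ± 0.16 in Atf4-/- cells (SD, n = 3). In normal medium the Cebpg probe set was not lower in Cebpg-/- cells (9.31 ± 0.06) than in WT cells (9.27 ± 0.09). In AAD medium it was lower, at 9.59 ± 0.21 in Cebpg-/- and 10.33 ± 0.12 in WT cells, without overlap of the arrays. The probe set checks nothing if it lies outside the deleted part. The Cebpg probe set was also lower than in WT in Atf4-/- cells, at 7.91 ± 0.19 in normal and 7.91 ± 0.13 in AAD medium. Atf4-/- cells thus also had less Cebpg transcript than WT cells. Of the 18 arrays, Cebpg-/- AAD replicate 3 lay farthest from its group mean, with a median absolute deviation of 0.0853 against 0.0404 to 0.0716 for the others. All 8 fibroblast markers were above the limit, and their summed linear level was 50782 to 54131 in WT, 32307 to 36524 in Atf4-/- and 35507 to 41451 in Cebpg-/- arrays. In normal medium 5 of the 8 were lower and 1 higher in Atf4-/- than in WT cells, against 21.4% and 30.2% of all genes. In Cebpg-/- cells 5 were lower and 0 higher, against 11.1% and 12.3%. Fewer cells of a type and less RNA per cell cannot be told apart in such bulk samples. The Actb signal of the 3′ control probe set exceeded that of the 5′ set by 0.16 to 0.29 in Atf4-/- arrays and by 0.09 to 0.17 in the others, while the same difference for Gapdh was -0.25 to -0.15 in all.

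In WT cells, 3 h of AAD medium raised 7 members and lowered 1 of the 31. The rises were in Ndrg1, Kdm3a, Ankrd37 and Bnip3, which are hypoxia targets outside glycolysis, in the hexokinase Hk2, the enolase Eno2 and the bifunctional enzyme Pfkfb3, and the fall was in Pfkfb4. The other glycolytic enzymes were not called, and of the 13 tested from hexokinase to pyruvate kinase 2 rose and none fell. The 8 called members were 25.8% of the 31, against 28.2% of all genes tested. The share that rose was 22.6% against 14.3%, and the share that fell was 3.23% against 13.9%. The median change of the 31 was 0.05, against -0.01 over all genes tested.

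In Atf4-/- cells 3 members rose and none fell under AAD, against 4.7% of all genes called either way, 2.67% higher and 2.03% lower. These were Ndrg1, Bnip3 and Kdm3a, each called in WT cells too. In Cebpg-/- cells 6 rose (Ndrg1, Kdm3a, Eno2, Bnip3, Hk2 and Pfkfb3) and 3 fell (Adm, Vegfa and Slc2a1), against 21.9% of all genes called, 11.7% higher and 10.3% lower. The count in Atf4-/- cells was 0 without Atf4-/- normal replicate 1 or 2 or Atf4-/- AAD replicate 3, and 1 without Atf4-/- AAD replicate 2. With a replicate block within genotype, which pairs the arrays of the same number in the 2 media, more members were called, and so were more of all genes. The counts were then 13 in WT cells (10 higher, 3 lower), or 41.9% against 39.2% of all genes, and 12 in Cebpg-/- cells (7 higher, 5 lower), or 38.7% against 34%. In Atf4-/- cells the block gave 9 (7 higher, 2 lower), or 29% against 11.1%.

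**Figure D1:**
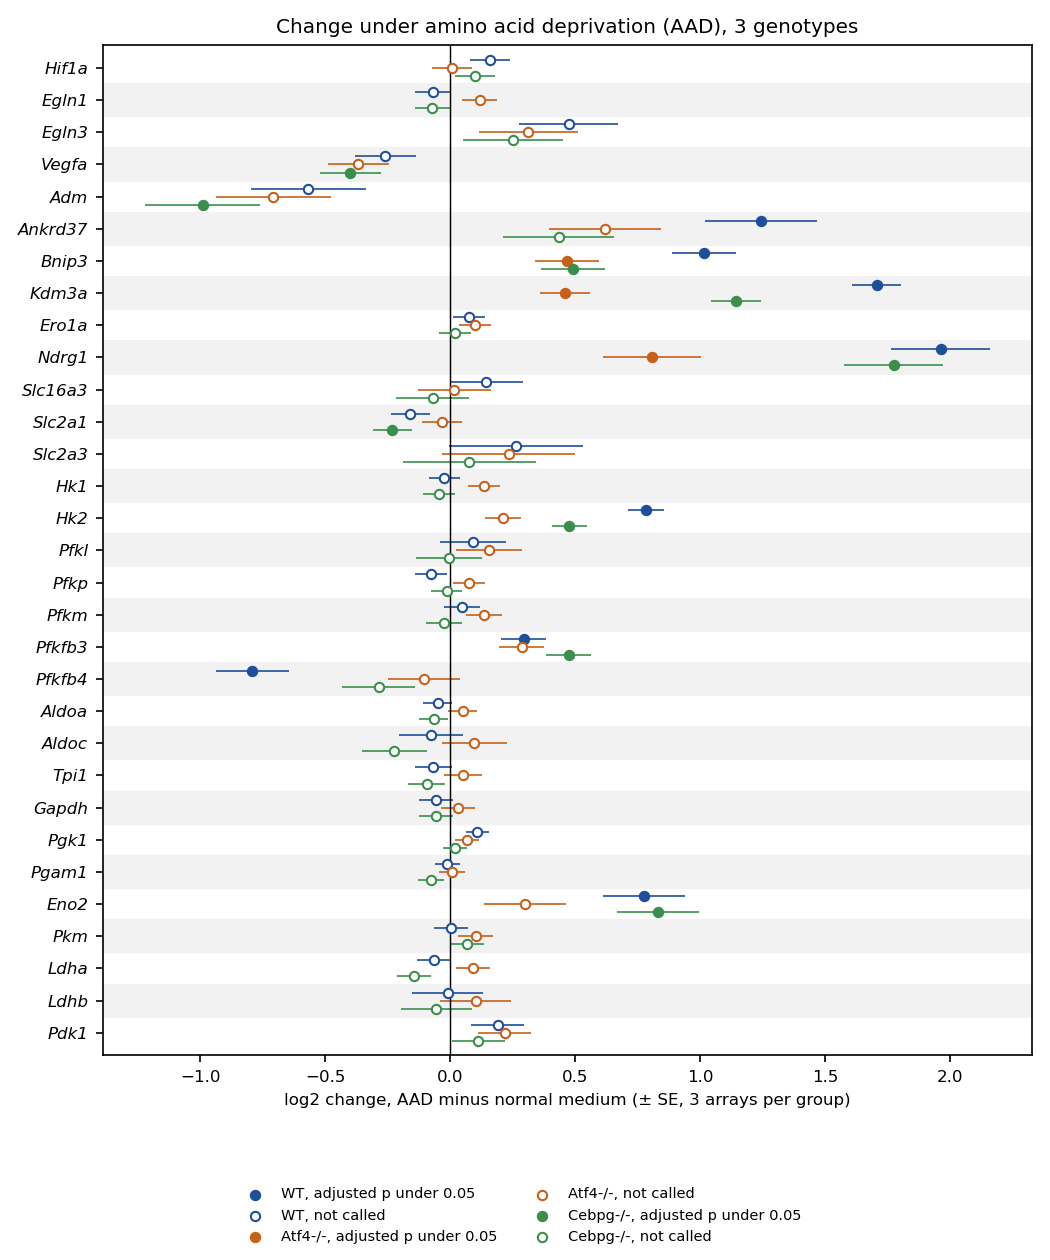
Log2 change under AAD (AAD minus normal medium) of the 31 tested members in WT, Atf4-/- and Cebpg-/- cells, with bars for the SE and filled points for adjusted p under 0.05. Kdm3a changed by 1.71 in WT, 0.46 in Atf4-/- and 1.14 in Cebpg-/- cells, while Gapdh, Pgam1 and Pkm lie near 0 in all 3.

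The response to AAD, which is the log2 change from normal to AAD medium, was then compared between genotypes. The response of Atf4-/- cells was below that of WT cells for Kdm3a, Ndrg1 and Hk2 and above it for Pfkfb4. That makes 4 of 31 members called (12.9%) against 12.8% of all genes tested, 5.73% higher and 7.04% lower. The replicate block within genotype gave 6 (1 higher, 5 lower), or 19.4% against 23.8% of all genes, adding Ankrd37 and Bnip3. Between Cebpg-/- and WT cells limma called 0 of 31 members at this threshold, against 0.226% of all genes, 0.0801% higher and 0.146% lower. At an unadjusted p under 0.05 there were 5, with 1 higher and 4 lower, where all genes gave 6.94%. With the replicate block within genotype 4 were called, namely Ankrd37, Bnip3, Kdm3a and Pfkfb4, against 1.38% of all genes, and without Cebpg-/- AAD replicate 3 there was 1, Kdm3a. Between the knockouts 1 member was called, Kdm3a, with a lower response in Atf4-/- cells, against 5.3% of all genes, 1.61% higher and 3.69% lower. That count was 4 with the replicate block, or 12.9% against 13.3% of all genes, and 2 without Atf4-/- normal replicate 1, Cebpg-/- AAD replicate 1 or Cebpg-/- normal replicate 3, with Ndrg1 added each time. Both comparisons with WT use the same WT arrays.

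More members differed in level between Atf4-/- and WT cells than between media, also where the media were compared with the replicate block within genotype. For Cebpg-/- cells, with 12 called against WT, this held only without that block. With it, 13 members were called between media in WT and 12 in Cebpg-/- cells. In normal medium 27 of 31 members (87.1%) differed between Atf4-/- and WT cells, against 51.5% of all genes tested. Of these, 16 stood lower (51.6%, against 21.4% of all genes) and 11 higher (35.5%, against 30.2%), and the median over the members was -0.30 against 0.02 over all genes. Of the lower members, 9 were among the 13 tested enzymes from hexokinase to pyruvate kinase. The others were Ldha, Pdk1, the lactate exporter Slc16a3, the glucose carrier Slc2a1, Pfkfb4 and the hypoxia targets Vegfa and Ero1a. Among the higher members were the hypoxia targets Ankrd37, Adm, Egln3, Bnip3, Kdm3a and Ndrg1 and the enolase Eno2.

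In Cebpg-/- cells 12 of 31 members (38.7%) differed from WT in normal medium, against 23.3% of all genes. There were 7 higher (12.3% of all genes were) and 5 lower (11.1% of all genes). Ankrd37, Adm, Egln3 and Bnip3 were again higher and Pfkfb4, Ero1a, Slc16a3, Hk2 and Pfkp lower, but of the 13 enzymes 1 was higher (Hk1) and 2 were lower (Hk2 and Pfkp). These comparisons use the same WT arrays as those of Atf4-/- cells, so the values of both are given side by side below.

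**Figure D2:**
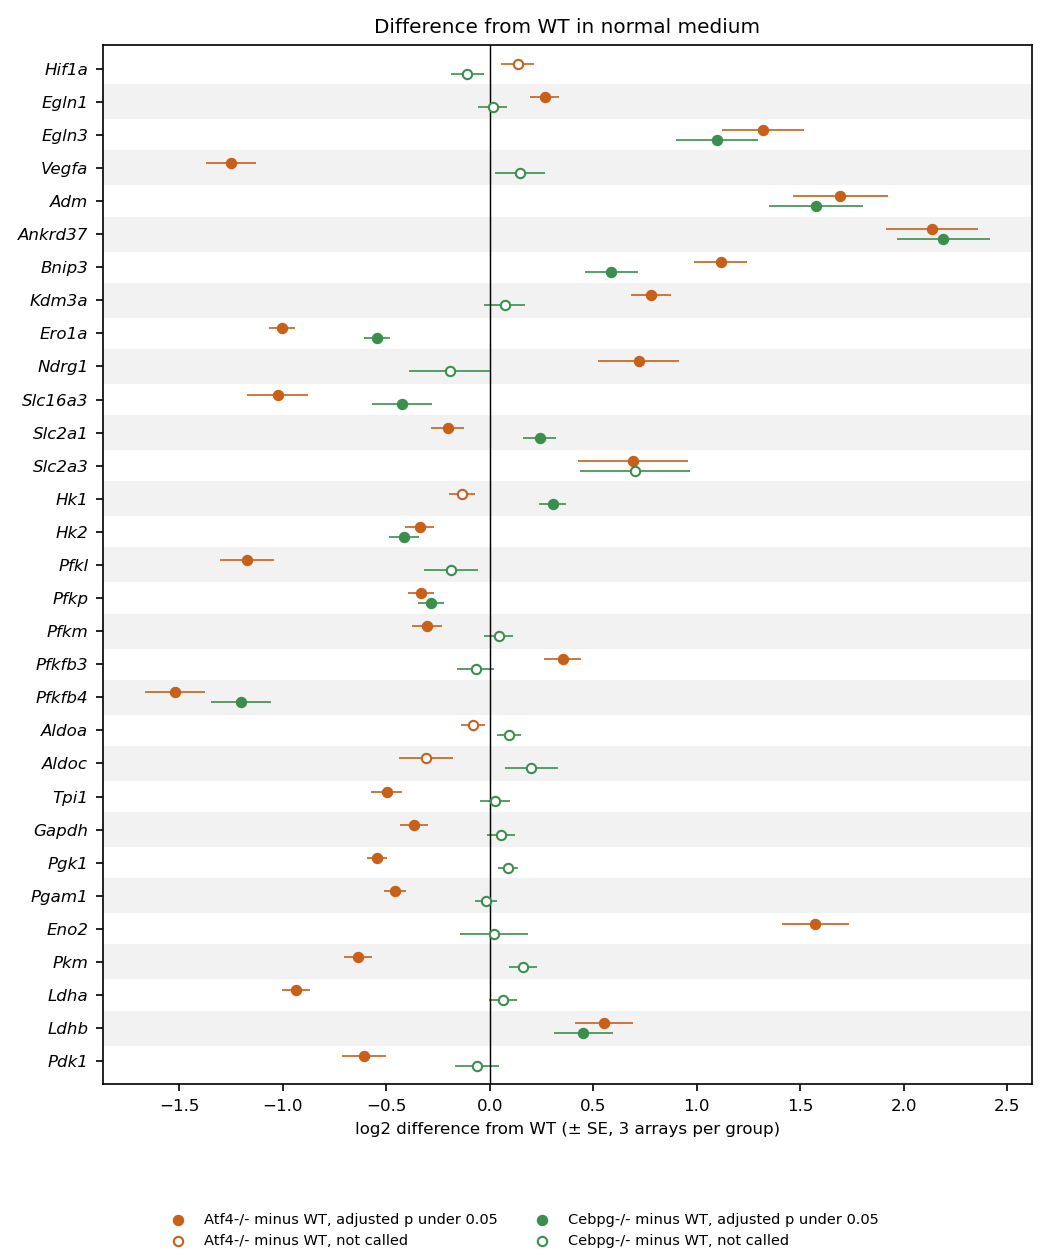
Log2 difference of Atf4-/- and Cebpg-/- cells from WT cells in normal medium for the 31 tested members, with bars for the SE and filled points for adjusted p under 0.05. Ldha stood at -0.94 and 0.06, and Ankrd37 at 2.14 and 2.19, in Atf4-/- and Cebpg-/- cells.

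Hif1a encodes the oxygen-labile subunit of HIF. WT arrays gave 11.30, 11.33 and 11.31 in normal medium and 11.44, 11.55 and 11.42 in AAD medium. In Atf4-/- arrays Hif1a stood at 11.27, 11.46 and 11.61 in normal medium and 11.39, 11.39 and 11.58 in AAD medium. For Hif1a, Cebpg-/- arrays gave 11.18, 11.26 and 11.18 in normal medium and 11.26, 11.42 and 11.23 in AAD medium. The 3 WT arrays in AAD medium lay above the 3 in normal medium, whereas the media overlapped in both knockouts. The change under AAD was 0.16 ± 0.08 (adjusted p = 0.171) in WT cells and was not called, but with the replicate block within genotype it was 0.16 ± 0.05 (adjusted p = 0.0307). Neither knockout was called against WT in normal medium, at 0.13 ± 0.08 (adjusted p = 0.178) for Atf4-/- and -0.11 ± 0.08 (adjusted p = 0.362) for Cebpg-/- cells.

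The prolyl hydroxylases that mark HIF for breakdown are themselves HIF targets. For Egln3, WT arrays gave 5.44, 6.21 and 5.204 in normal medium and 6.08, 6.40 and 5.81 in AAD medium. Values of Egln3 in Atf4-/- arrays were 6.90, 6.83 and 7.09 in normal medium and 7.16, 7.16 and 7.43 in AAD medium. Egln3 in Cebpg-/- arrays read 6.70, 6.90 and 6.56 in normal medium and 6.91, 6.95 and 7.04 in AAD medium. Every knockout array stood above every WT array, and the WT media overlapped. In normal medium Egln3 was higher by 1.32 ± 0.20 (adjusted p = 3.67e-05) in Atf4-/- cells and by 1.10 ± 0.20 (adjusted p = 0.000881) in Cebpg-/- cells. In AAD medium the differences were 1.16 ± 0.20 (adjusted p = 0.000121) and 0.87 ± 0.20 (adjusted p = 0.00372). A dimmer probe set of Egln3 differed by 0.39 and 0.24 in normal medium, the former called. The change under AAD in WT cells was 0.47 ± 0.20 (adjusted p = 0.0915), not called, and 0.47 ± 0.10 (adjusted p = 0.00265) with the replicate block. Egln1, the more widely expressed hydroxylase, was higher by 0.27 ± 0.07 (adjusted p = 0.0045) in Atf4-/- cells, although its second probe set stood at -0.12, and in Cebpg-/- cells it differed by 0.01 ± 0.07.

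Among the secreted products, Vegfa, the angiogenic growth factor, was low in Atf4-/- cells. WT arrays gave 10.77, 10.49 and 10.73 in normal medium and 10.38, 10.24 and 10.58 in AAD medium. Values of Vegfa in Atf4-/- arrays were 9.23, 9.33 and 9.67 in normal medium and 8.98, 8.94 and 9.21 in AAD medium. In Cebpg-/- arrays Vegfa stood at 10.82, 10.79 and 10.81 in normal medium and 10.36, 10.27 and 10.60 in AAD medium. All Atf4-/- arrays lay below all others. Vegfa was lower in Atf4-/- than in WT cells by 1.25 ± 0.12 (adjusted p = 3.85e-07) in normal medium, a 2.38-fold difference, and by 1.36 ± 0.12 (adjusted p = 1.49e-07) in AAD medium. Its difference in Cebpg-/- cells was 0.15 ± 0.12 (adjusted p = 0.425) in normal medium. Against Cebpg-/- cells directly, a comparison added after the data had been seen, Atf4-/- cells were lower by 1.40 ± 0.12 (adjusted p = 1.7e-07). Vegfa fell under AAD in Cebpg-/- cells, by 0.40 ± 0.12 (adjusted p = 0.0266), and this call was lost without Cebpg-/- normal replicates 1, 2 or 3 or Cebpg-/- AAD replicates 1 or 2 (range -0.49 to -0.33). In WT and Atf4-/- cells its changes were -0.26 ± 0.12 (adjusted p = 0.133) and -0.37 ± 0.12 (adjusted p = 0.11), and with the replicate block -0.26 ± 0.07 (adjusted p = 0.0144) and -0.37 ± 0.07 (adjusted p = 0.00893).

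Adm encodes adrenomedullin, a vasodilator peptide. It stood higher in both knockouts. WT arrays gave 7.79, 8.03 and 7.93 in normal medium and 7.31, 7.20 and 7.53 in AAD medium. Values of Adm in Atf4-/- arrays were 10.23, 9.57 and 9.03 in normal medium and 9.18, 9.01 and 8.52 in AAD medium. For Adm, Cebpg-/- arrays gave 9.31, 9.74 and 9.43 in normal medium and 8.38, 8.65 and 8.48 in AAD medium. All knockout arrays lay above all WT arrays. Differences from WT in normal medium were 1.70 ± 0.23 (adjusted p = 1.26e-05) in Atf4-/- and 1.58 ± 0.23 (adjusted p = 0.000148) in Cebpg-/- cells, and those in AAD medium were 1.55 ± 0.23 (adjusted p = 2.84e-05) and 1.15 ± 0.23 (adjusted p = 0.00145). Under AAD Adm fell by 0.99 ± 0.23 (adjusted p = 0.00539) in Cebpg-/- cells. The changes of -0.57 ± 0.23 (adjusted p = 0.0799) in WT and -0.71 ± 0.23 (adjusted p = 0.102) in Atf4-/- cells were not called, but with the replicate block they were -0.57 ± 0.11 (adjusted p = 0.00175) and -0.71 ± 0.11 (adjusted p = 0.00244).

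Of the 8 markers of macrophages all were above the limit, and some of them moved in the directions of Adm. Their summed linear level was 4254 to 4305 in WT arrays in normal medium and 2480 to 2587 in AAD medium. In Atf4-/- arrays it was 6941 to 9249 and 4114 to 5998, and in Cebpg-/- arrays 9436 to 12564 and 4878 to 6752. In normal medium 3 of the 8 were higher in Atf4-/- cells than in WT cells, where 30.2% of all genes were, and 6 in Cebpg-/- cells, where 12.3% were, with none lower in either. Under AAD in WT cells 2 of the 8 fell, where 13.9% of all genes did, and none rose, where 14.3% did. With 8 markers, the count in Atf4-/- cells lay near the share over all genes, and the 2 falls are few. The part of these markers in the Adm values was not tested.

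Of the hypoxia targets outside glycolysis, Ndrg1 and Kdm3a had the 2 largest rises among the members in WT cells. Ndrg1 encodes a cytoplasmic protein that hypoxia and other stresses induce. In WT arrays Ndrg1 stood at 7.75, 7.83 and 7.73 in normal medium and 9.80, 9.67 and 9.72 in AAD medium. Values of Ndrg1 in Atf4-/- arrays were 8.16, 8.64 and 8.65 in normal medium and 8.91, 9.47 and 9.50 in AAD medium. Ndrg1 in Cebpg-/- arrays read 7.52, 7.39 and 7.81 in normal medium and 9.05, 9.14 and 9.85 in AAD medium. The media did not overlap in any genotype. Ndrg1 rose by 1.96 ± 0.20 (adjusted p = 1.63e-06) in WT cells, or 3.89-fold, and by 1.77 ± 0.20 (adjusted p = 8.04e-06) in Cebpg-/- cells. The rise in Atf4-/- cells was 0.81 ± 0.20 (adjusted p = 0.0269), a call lost without Atf4-/- normal replicates 1 or 2 or Atf4-/- AAD replicates 2 or 3 (range 0.64 to 1.00). The response was lower in Atf4-/- than in WT cells by 1.16 ± 0.28 (adjusted p = 0.0117). Between the knockouts the response differed by -0.97 ± 0.28 (adjusted p = 0.0576), and with the replicate block by -0.97 ± 0.12 (adjusted p = 0.000595). All 4 dimmer probe sets of Ndrg1 rose in WT cells, by 0.97 to 2.15. Atf4-/- cells began from a higher level in normal medium, by 0.72 ± 0.20 (adjusted p = 0.0058), and in AAD medium the difference from WT was -0.44 ± 0.20 (adjusted p = 0.0734).

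Kdm3a encodes a histone demethylase that removes methyl groups from H3K9. In WT arrays Kdm3a stood at 8.43, 8.36 and 8.33 in normal medium and 10.06, 9.995 and 10.19 in AAD medium. Values of Kdm3a in Atf4-/- arrays were 9.14, 9.04 and 9.28 in normal medium and 9.65, 9.55 and 9.63 in AAD medium. For Kdm3a, Cebpg-/- arrays gave 8.44, 8.38 and 8.52 in normal medium and 9.42, 9.48 and 9.87 in AAD medium. The media did not overlap in any genotype, and the WT arrays in AAD medium lay above all others. Kdm3a rose by 1.71 ± 0.10 (adjusted p = 3.4e-09) in WT and by 1.14 ± 0.10 (adjusted p = 5.67e-07) in Cebpg-/- cells. Its rise in Atf4-/- cells was 0.46 ± 0.10 (adjusted p = 0.013), which was not called without Atf4-/- normal replicates 1 or 2 or Atf4-/- AAD replicate 3 (range 0.40 to 0.52). The response in Atf4-/- cells was lower than in WT cells by 1.25 ± 0.14 (adjusted p = 2.25e-05) and lower than in Cebpg-/- cells by 0.68 ± 0.14 (adjusted p = 0.00746). The response in Cebpg-/- cells differed from WT by -0.56 ± 0.14 (adjusted p = 0.145), not called, and by -0.56 ± 0.11 (adjusted p = 0.0319) with the replicate block. Atf4-/- cells stood above WT in normal medium, by 0.78 ± 0.10 (adjusted p = 6.36e-06), and below it in AAD medium, by 0.47 ± 0.10 (adjusted p = 0.000793). It was the single member called in opposite directions in the 2 media.

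Ankrd37, which encodes an ankyrin repeat protein, had the largest differences from WT in normal medium among the members in both knockouts. In WT arrays Ankrd37 stood at 4.92, 5.26 and 4.88 in normal medium and 6.24, 6.45 and 6.11 in AAD medium. Values of Ankrd37 in Atf4-/- arrays were 7.17, 6.89 and 7.41 in normal medium and 7.67, 7.68 and 7.98 in AAD medium. Ankrd37 in Cebpg-/- arrays read 6.75, 7.17 and 7.71 in normal medium and 7.32, 7.53 and 8.09 in AAD medium. All knockout arrays, in either medium, stood above all WT arrays, those in AAD medium included. The differences in normal medium were 2.14 ± 0.22 (adjusted p = 8.59e-07) in Atf4-/- and 2.19 ± 0.22 (adjusted p = 7.47e-06) in Cebpg-/- cells, which is 4.4-fold and 4.57-fold. Ankrd37 rose under AAD in WT cells by 1.24 ± 0.22 (adjusted p = 0.000511). In Atf4-/- cells its change was 0.62 ± 0.22 (adjusted p = 0.149), and 0.62 ± 0.06 (adjusted p = 0.000285) with the replicate block. The change in Cebpg-/- cells was 0.43 ± 0.22 (adjusted p = 0.192), and 0.43 ± 0.06 (adjusted p = 0.000592) with the block. The responses differed from WT by -0.62 ± 0.32 (adjusted p = 0.236) in Atf4-/- and -0.81 ± 0.32 (adjusted p = 0.566) in Cebpg-/- cells, and with the block by -0.62 ± 0.09 (adjusted p = 0.00101) and -0.81 ± 0.09 (adjusted p = 0.0032).

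Bnip3 encodes a receptor of the outer mitochondrial membrane that directs mitochondria to autophagy. In WT arrays Bnip3 stood at 8.32, 8.92 and 8.52 in normal medium and 9.50, 9.79 and 9.51 in AAD medium. Values of Bnip3 in Atf4-/- arrays were 9.59, 9.72 and 9.79 in normal medium and 10.05, 10.20 and 10.26 in AAD medium. For Bnip3, Cebpg-/- arrays gave 9.03, 9.30 and 9.18 in normal medium and 9.54, 9.68 and 9.76 in AAD medium. The media did not overlap in any genotype. Bnip3 rose by 1.01 ± 0.13 (adjusted p = 1.75e-05) in WT and by 0.49 ± 0.13 (adjusted p = 0.0116) in Cebpg-/- cells, the latter lost without Cebpg-/- normal replicate 1 (range 0.42 to 0.55). The rise in Atf4-/- cells was 0.47 ± 0.13 (adjusted p = 0.05), just under the threshold before rounding, and leaving out any 1 of the 6 Atf4-/- arrays ended the call (range 0.41 to 0.53). In normal medium it was higher than in WT by 1.12 ± 0.13 (adjusted p = 2.25e-06) in Atf4-/- and 0.59 ± 0.13 (adjusted p = 0.00349) in Cebpg-/- cells, and in AAD medium by 0.57 ± 0.13 (adjusted p = 0.00137) in Atf4-/- cells. The responses of Atf4-/- and Cebpg-/- cells differed from WT by -0.55 ± 0.18 (adjusted p = 0.0594) and -0.53 ± 0.18 (adjusted p = 0.444), and with the replicate block by -0.55 ± 0.09 (adjusted p = 0.00146) and -0.53 ± 0.09 (adjusted p = 0.0195).

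Ero1a encodes the thiol oxidase that drives disulfide formation in the endoplasmic reticulum. In WT arrays Ero1a stood at 9.64, 9.73 and 9.71 in normal medium and 9.64, 9.79 and 9.87 in AAD medium. Values of Ero1a in Atf4-/- arrays were 8.68, 8.67 and 8.71 in normal medium and 8.87, 8.83 and 8.66 in AAD medium. Ero1a in Cebpg-/- arrays read 9.19, 9.13 and 9.13 in normal medium and 9.19, 9.14 and 9.17 in AAD medium. The 3 genotypes did not overlap, with WT highest and Atf4-/- lowest in both media. Ero1a was lower than in WT by 1.01 ± 0.06 (adjusted p = 3.98e-09) in Atf4-/- and by 0.54 ± 0.06 (adjusted p = 2.31e-05) in Cebpg-/- cells in normal medium, and by 0.98 ± 0.06 (adjusted p = 5.13e-09) and 0.60 ± 0.06 (adjusted p = 6.62e-06) in AAD medium. Its 2 dimmer probe sets differed by -0.26 and -0.35 in Atf4-/- cells, both called, and by -0.06 and -0.11 in Cebpg-/- cells, neither called. AAD changed it by 0.02 to 0.10 over the genotypes, not called in any.

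**Figure D3:**
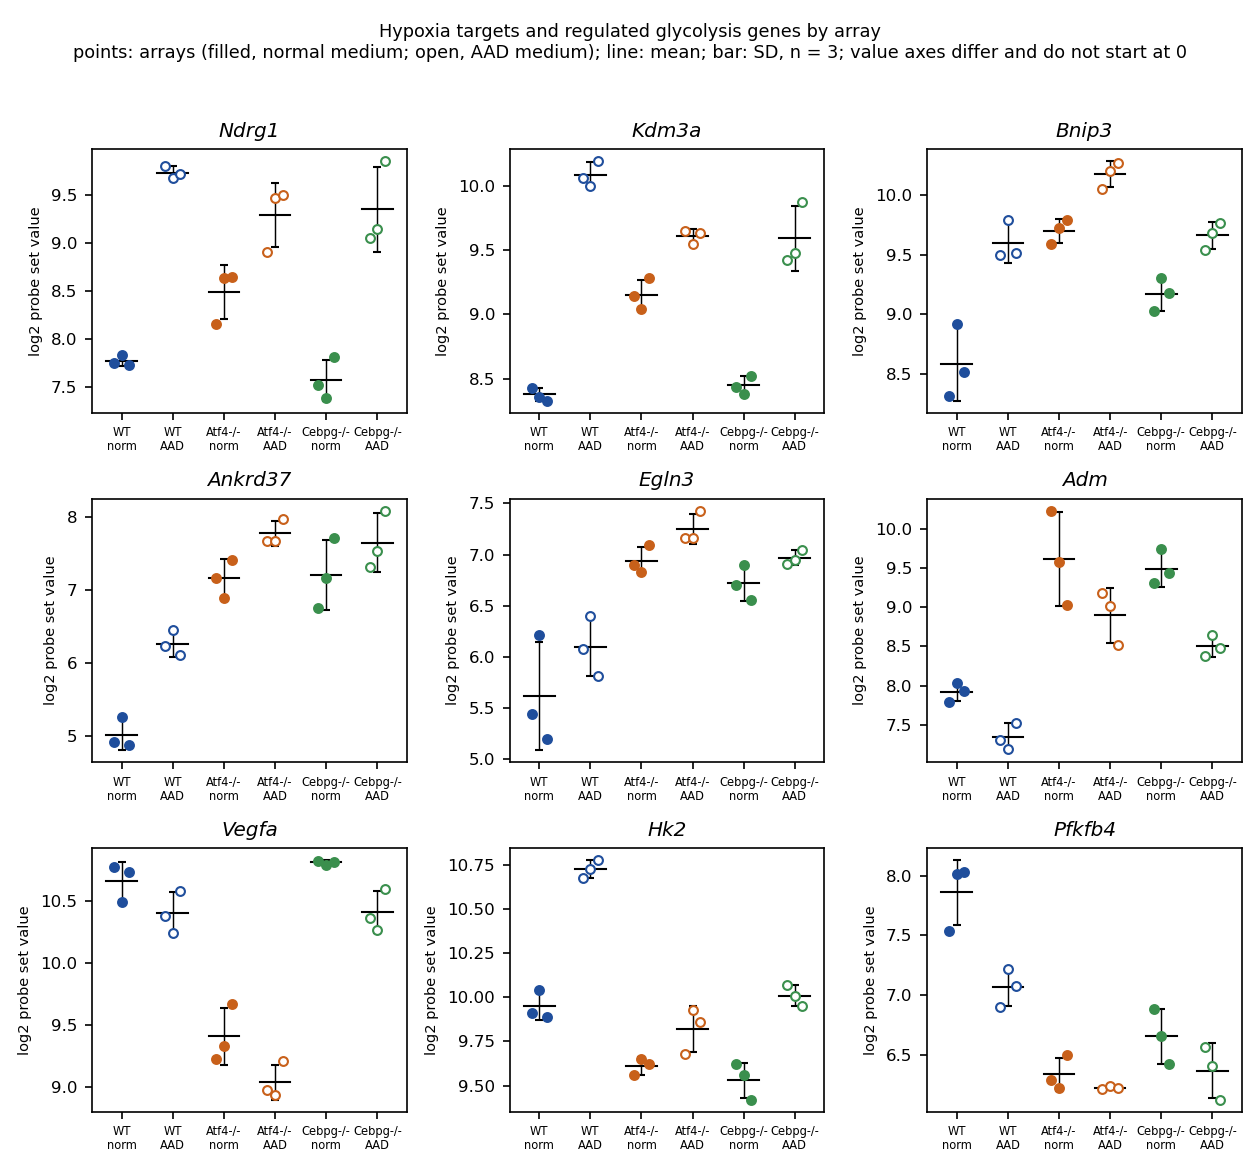
Log2 probe set value of 9 members on each of the 18 arrays (filled, normal medium; open, AAD medium), with group means and SD (n = 3). Ndrg1 and Kdm3a separate by medium, whereas Adm separates WT from both knockouts and Vegfa separates Atf4-/- from the other genotypes.

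Glucose enters fibroblasts mainly through the carrier Slc2a1. Its values ran from 10.59 to 11.28 over the 18 arrays. In normal medium Slc2a1 was lower in Atf4-/- cells by 0.20 ± 0.08 (adjusted p = 0.0416) and higher in Cebpg-/- cells by 0.24 ± 0.08 (adjusted p = 0.0368). The former call was lost without WT normal replicates 1, 2 or 3 or Atf4-/- normal replicates 1 or 3 (range -0.26 to -0.17) and the latter without any 1 of its 6 arrays (range 0.22 to 0.26). The fall under AAD in Cebpg-/- cells was 0.23 ± 0.08 (adjusted p = 0.0462) and was lost without Cebpg-/- normal replicates 1, 2 or 3 or Cebpg-/- AAD replicates 1 or 3 (range -0.30 to -0.20).

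Slc2a3 is the high-affinity glucose carrier. In WT arrays Slc2a3 stood at 5.94, 6.13 and 5.66 in normal medium and 6.49, 6.31 and 5.72 in AAD medium. Values of Slc2a3 in Atf4-/- arrays were 6.77, 6.50 and 6.53 in normal medium and 7.09, 6.76 and 6.65 in AAD medium. For Slc2a3, Cebpg-/- arrays gave 6.73, 7.10 and 5.999 in normal medium and 6.94, 6.96 and 6.17 in AAD medium. The Atf4-/- arrays lay above the WT arrays in each medium, while the Cebpg-/- arrays spread widely and overlapped WT. Slc2a3 was higher in Atf4-/- cells by 0.69 ± 0.27 (adjusted p = 0.0404) in normal and 0.66 ± 0.27 (adjusted p = 0.0467) in AAD medium. Both calls were lost with the mean of all probe sets, quantile normalization, median centring or an intensity trend. The former call was lost without WT normal replicates 1 or 3 or Atf4-/- normal replicates 1, 2 or 3 (range 0.57 to 0.80), and the latter without WT AAD replicates 2 or 3 or Atf4-/- AAD replicates 1 or 2 (range 0.43 to 0.82, with 0.43 without WT AAD replicate 3). The difference of Cebpg-/- cells in normal medium had the same size, 0.70 ± 0.27 (adjusted p = 0.0698), and was not called.

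Slc16a3 encodes the carrier that exports lactate. In WT arrays Slc16a3 stood at 4.74, 5.27 and 5.35 in normal medium and 4.92, 5.51 and 5.36 in AAD medium. Values of Slc16a3 in Atf4-/- arrays were 4.07, 4.04 and 4.17 in normal medium and 4.18, 4.02 and 4.13 in AAD medium. Slc16a3 in Cebpg-/- arrays read 4.79, 4.60 and 4.70 in normal medium and 4.55, 4.70 and 4.63 in AAD medium. All 6 Atf4-/- arrays lay below the limit of 4.65, and the Cebpg-/- means of 4.70 in normal and 4.63 in AAD medium lay near it. The sizes of the differences from WT are therefore uncertain in both knockouts. Slc16a3 was lower by 1.03 ± 0.15 (adjusted p = 2.07e-05) in Atf4-/- and by 0.42 ± 0.15 (adjusted p = 0.0462) in Cebpg-/- cells in normal medium, the latter lost without WT normal replicates 2 or 3 or Cebpg-/- normal replicates 1, 2 or 3 (range -0.61 to -0.31). In AAD medium it was lower by 1.15 ± 0.15 (adjusted p = 5.75e-06) and 0.64 ± 0.15 (adjusted p = 0.00385).

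Hexokinases trap glucose in the cell by phosphorylation. For Hk2, the inducible isoform, WT arrays gave 9.91, 10.04 and 9.89 in normal medium and 10.68, 10.73 and 10.78 in AAD medium. Values of Hk2 in Atf4-/- arrays were 9.56, 9.65 and 9.62 in normal medium and 9.68, 9.93 and 9.86 in AAD medium. For Hk2, Cebpg-/- arrays gave 9.62, 9.56 and 9.42 in normal medium and 10.07, 10.01 and 9.95 in AAD medium. The 3 WT arrays in AAD medium stood above all 15 others. Hk2 rose by 0.78 ± 0.07 (adjusted p = 5.97e-07) in WT and by 0.48 ± 0.07 (adjusted p = 0.000155) in Cebpg-/- cells. Its change in Atf4-/- cells was 0.21 ± 0.07 (adjusted p = 0.118), and 0.21 ± 0.05 (adjusted p = 0.0277) with the replicate block. The response in Atf4-/- cells was lower than in WT cells by 0.57 ± 0.10 (adjusted p = 0.00135). Hk2 also stood below WT in normal medium, by 0.34 ± 0.07 (adjusted p = 0.000813) in Atf4-/- and 0.42 ± 0.07 (adjusted p = 0.000579) in Cebpg-/- cells, and in AAD medium by 0.91 ± 0.07 (adjusted p = 4.03e-08) and 0.72 ± 0.07 (adjusted p = 4.04e-06). Hk1, the constitutive isoform, was higher in Cebpg-/- cells by 0.30 ± 0.06 (adjusted p = 0.00254), although its second probe set stood at -0.05, and differed by -0.13 ± 0.06 (adjusted p = 0.0899) in Atf4-/- cells.

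Phosphofructokinase commits sugar to glycolysis, and its liver-type subunit Pfkl differed most. WT arrays gave 7.36, 7.91 and 7.90 in normal medium and 7.66, 8.08 and 7.69 in AAD medium. Values of Pfkl in Atf4-/- arrays were 6.61, 6.55 and 6.49 in normal medium and 6.82, 6.63 and 6.67 in AAD medium. Pfkl in Cebpg-/- arrays read 7.47, 7.46 and 7.68 in normal medium and 7.56, 7.49 and 7.54 in AAD medium. Every Atf4-/- array lay below every other array. Pfkl was lower in Atf4-/- than in WT cells by 1.17 ± 0.13 (adjusted p = 1.78e-06) in normal and 1.11 ± 0.13 (adjusted p = 3.04e-06) in AAD medium. Its 2 dimmer probe sets disagreed, at -0.53 and 0.16 in normal medium. The platelet and muscle subunits were lower in Atf4-/- cells by 0.33 ± 0.06 (adjusted p = 0.000316) (Pfkp) and 0.30 ± 0.07 (adjusted p = 0.00218) (Pfkm), and Pfkp also in Cebpg-/- cells by 0.28 ± 0.06 (adjusted p = 0.00392). Another Pfkp probe set stood at 0.20 in Atf4-/- cells.

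Pfkfb3 and Pfkfb4 set the level of fructose 2,6-bisphosphate, the activator of phosphofructokinase, and moved apart. For Pfkfb4, WT arrays gave 7.54, 8.01 and 8.03 in normal medium and 6.90, 7.22 and 7.08 in AAD medium. Values of Pfkfb4 in Atf4-/- arrays were 6.29, 6.23 and 6.50 in normal medium and 6.22, 6.24 and 6.23 in AAD medium. For Pfkfb4, Cebpg-/- arrays gave 6.89, 6.66 and 6.43 in normal medium and 6.57, 6.41 and 6.13 in AAD medium. All knockout arrays lay below all WT arrays. Pfkfb4 was lower by 1.52 ± 0.14 (adjusted p = 3.09e-07) in Atf4-/- and 1.20 ± 0.14 (adjusted p = 2.92e-05) in Cebpg-/- cells in normal medium, and by 0.84 ± 0.14 (adjusted p = 0.000133) and 0.70 ± 0.14 (adjusted p = 0.00199) in AAD medium. Under AAD it fell in WT cells by 0.79 ± 0.14 (adjusted p = 0.000583). Its change in Atf4-/- cells was -0.11 ± 0.14 (adjusted p = 0.809), and in Cebpg-/- cells -0.29 ± 0.14 (adjusted p = 0.181), or -0.29 ± 0.07 (adjusted p = 0.00786) with the replicate block. The response was higher than in WT cells, that is less negative, by 0.69 ± 0.20 (adjusted p = 0.0378) in Atf4-/- cells. That call was lost in 9 of 12 fits without 1 array, namely without WT AAD replicates 1 or 3, WT normal replicates 2 or 3, Atf4-/- normal replicates 1 or 2 or Atf4-/- AAD replicates 1, 2 or 3 (range 0.60 to 0.84). The difference of the Cebpg-/- response was 0.51 ± 0.20 (adjusted p = 0.594), and 0.51 ± 0.09 (adjusted p = 0.0317) with the block.

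Pfkfb3, the isoform with the higher kinase activity, ran from 6.44 to 7.46 over the arrays. It rose under AAD by 0.29 ± 0.09 (adjusted p = 0.0222) in WT and by 0.47 ± 0.09 (adjusted p = 0.00119) in Cebpg-/- cells. Its change in Atf4-/- cells was of like size, 0.29 ± 0.09 (adjusted p = 0.0902), but not called, and 0.29 ± 0.07 (adjusted p = 0.0312) with the replicate block. The WT call was lost without WT normal replicates 1 or 3 or WT AAD replicate 2 (range 0.23 to 0.35). In normal medium Pfkfb3 was higher in Atf4-/- cells by 0.35 ± 0.09 (adjusted p = 0.00351) and differed by -0.07 ± 0.09 in Cebpg-/- cells.

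Most of the later enzymes of glycolysis stood lower in Atf4-/- cells, and none but Eno2 was called under AAD in any genotype. Gapdh, often used as a reference transcript, was read here from its 5′ control probe set. In WT arrays Gapdh stood at 13.56, 13.63 and 13.65 in normal medium and 13.55, 13.61 and 13.51 in AAD medium. Values of Gapdh in Atf4-/- arrays were 13.39, 13.24 and 13.11 in normal medium and 13.36, 13.29 and 13.18 in AAD medium. Gapdh in Cebpg-/- arrays read 13.65, 13.69 and 13.66 in normal medium and 13.62, 13.65 and 13.55 in AAD medium. The 6 Atf4-/- arrays lay below all others. The difference from WT was -0.37 ± 0.07 (adjusted p = 0.000248) in Atf4-/- and 0.05 ± 0.07 (adjusted p = 0.623) in Cebpg-/- cells in normal medium, and in AAD medium -0.28 ± 0.07 (adjusted p = 0.00232) and 0.05 ± 0.07 (adjusted p = 0.607). AAD changed Gapdh by -0.06 in WT, 0.03 in Atf4-/- and -0.06 in Cebpg-/- cells, not called in any.

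Phosphoglycerate kinase, encoded by Pgk1, makes the first ATP of the pathway. In WT arrays Pgk1 stood at 13.08, 13.21 and 13.13 in normal medium and 13.22, 13.30 and 13.23 in AAD medium. Values of Pgk1 in Atf4-/- arrays were 12.62, 12.59 and 12.58 in normal medium and 12.69, 12.64 and 12.65 in AAD medium. For Pgk1, Cebpg-/- arrays gave 13.21, 13.27 and 13.20 in normal medium and 13.25, 13.27 and 13.22 in AAD medium. The Atf4-/- arrays lay below all others by more than the whole range within them. Pgk1 was lower in Atf4-/- cells by 0.55 ± 0.05 (adjusted p = 1.28e-07) in normal and 0.59 ± 0.05 (adjusted p = 5.72e-08) in AAD medium, against differences of 0.09 and -0.00 in Cebpg-/- cells. Pyruvate kinase, encoded by Pkm, closes the pathway. In WT arrays Pkm stood at 11.52, 11.68 and 11.75 in normal medium and 11.59, 11.75 and 11.62 in AAD medium. Values of Pkm in Atf4-/- arrays were 11.12, 10.96 and 10.96 in normal medium and 11.15, 11.13 and 11.07 in AAD medium. Pkm in Cebpg-/- arrays read 11.73, 11.85 and 11.86 in normal medium and 11.87, 11.90 and 11.86 in AAD medium. Pkm was lowest in Atf4-/- arrays, without overlap. It was lower in Atf4-/- cells by 0.64 ± 0.07 (adjusted p = 1.14e-06) in normal and 0.54 ± 0.07 (adjusted p = 6.09e-06) in AAD medium, and in Cebpg-/- cells it differed by 0.16 ± 0.07 (adjusted p = 0.104) and 0.22 ± 0.07 (adjusted p = 0.0219). The last of these was lost without WT AAD replicates 1 or 3 or Cebpg-/- AAD replicate 2 (range 0.19 to 0.27).

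Other enzymes between aldolase and enolase split. Tpi1, triose phosphate isomerase, was lower in Atf4-/- cells by 0.50 ± 0.07 (adjusted p = 3.26e-05), and Pgam1, phosphoglycerate mutase, by 0.46 ± 0.05 (adjusted p = 1.89e-06) in normal medium. In AAD medium both were lower too, by 0.38 ± 0.07 (adjusted p = 0.000402) and 0.44 ± 0.05 (adjusted p = 2.81e-06). Aldoa, the main aldolase of fibroblasts, was not called in Atf4-/- cells, at -0.08 ± 0.06 (adjusted p = 0.262), nor was the dim isoform Aldoc, at -0.31 ± 0.13 (adjusted p = 0.0571). Eno2, the neuronal enolase, ran the other way. In WT arrays Eno2 stood at 4.43, 4.88 and 4.57 in normal medium and 5.69, 5.24 and 5.28 in AAD medium. Values of Eno2 in Atf4-/- arrays were 6.22, 6.16 and 6.22 in normal medium and 6.32, 6.54 and 6.63 in AAD medium. For Eno2, Cebpg-/- arrays gave 4.63, 4.37 and 4.94 in normal medium and 5.47, 5.22 and 5.75 in AAD medium. The Atf4-/- arrays lay above all others in either medium. Eno2 was higher in Atf4-/- cells by 1.57 ± 0.16 (adjusted p = 7.91e-07) in normal and 1.09 ± 0.16 (adjusted p = 3.19e-05) in AAD medium, and differed by 0.02 ± 0.16 in Cebpg-/- cells. It rose under AAD by 0.78 ± 0.16 (adjusted p = 0.00188) in WT and 0.83 ± 0.16 (adjusted p = 0.0016) in Cebpg-/- cells, and changed by 0.30 ± 0.16 (adjusted p = 0.406) in Atf4-/- cells. The means of WT and Cebpg-/- cells in normal medium lay at the limit of 4.65, so these sizes are uncertain.

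**Figure D4:**
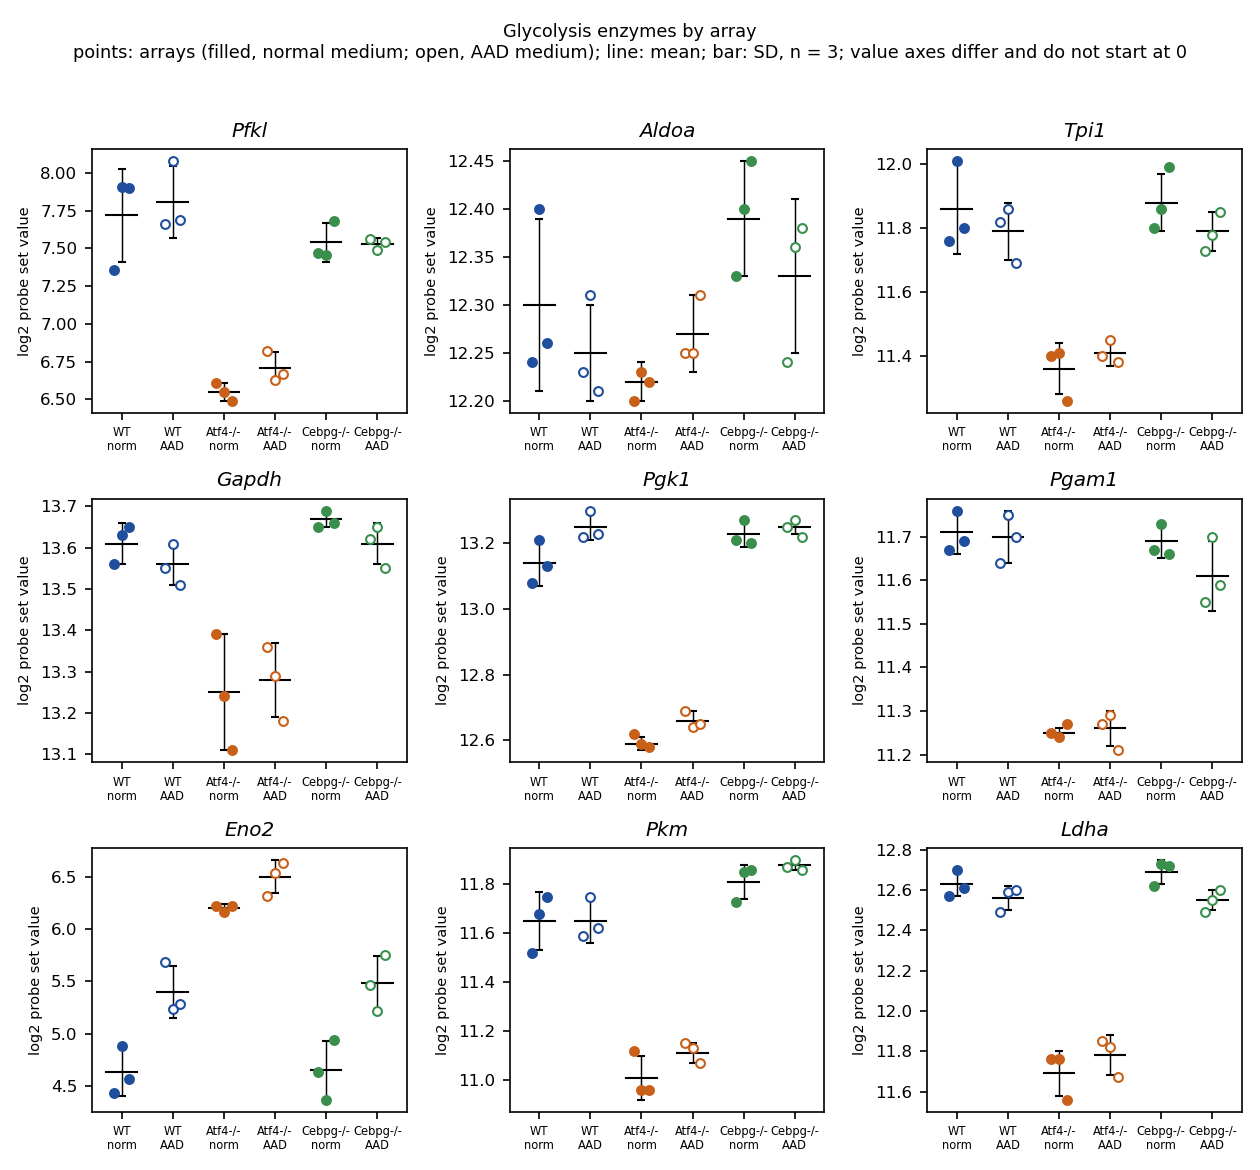
Log2 probe set value of 9 glycolysis enzymes on each of the 18 arrays (filled, normal medium; open, AAD medium), with group means and SD (n = 3). Atf4-/- arrays lie lowest for 7 of the enzymes, overlap the others for Aldoa and lie highest for Eno2.

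Lactate dehydrogenase joins pyruvate and lactate, and its subunits differed in opposite directions. In WT arrays Ldha stood at 12.57, 12.70 and 12.61 in normal medium and 12.49, 12.59 and 12.60 in AAD medium. Values of Ldha in Atf4-/- arrays were 11.76, 11.76 and 11.56 in normal medium and 11.85, 11.82 and 11.67 in AAD medium. Ldha in Cebpg-/- arrays read 12.62, 12.73 and 12.72 in normal medium and 12.49, 12.55 and 12.60 in AAD medium. The 6 Atf4-/- arrays lay below the 12 others. Ldha was lower in Atf4-/- cells by 0.94 ± 0.07 (adjusted p = 1.77e-08), or 1.91-fold, in normal medium and by 0.78 ± 0.07 (adjusted p = 1.12e-07) in AAD medium. In Cebpg-/- cells it differed from WT by 0.06 ± 0.07 (adjusted p = 0.557) and -0.01 ± 0.07 (adjusted p = 0.898). Under AAD it changed by -0.14 ± 0.07 (adjusted p = 0.148) in Cebpg-/- cells, or -0.14 ± 0.04 (adjusted p = 0.0239) with the replicate block, and the responses of the knockouts differed by 0.23 ± 0.06 (adjusted p = 0.0288) with the block.

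Ldhb, the subunit that favours the use of lactate, was higher in both knockouts. In WT arrays Ldhb stood at 8.37, 8.26 and 8.15 in normal medium and 8.42, 8.25 and 8.06 in AAD medium. Values of Ldhb in Atf4-/- arrays were 8.66, 8.77 and 9.00 in normal medium and 8.89, 8.91 and 8.94 in AAD medium. For Ldhb, Cebpg-/- arrays gave 8.44, 8.69 and 9.00 in normal medium and 8.48, 8.54 and 8.94 in AAD medium. All knockout arrays lay above the WT arrays of their medium. Ldhb was higher by 0.55 ± 0.14 (adjusted p = 0.00371) in Atf4-/- and 0.45 ± 0.14 (adjusted p = 0.0302) in Cebpg-/- cells in normal medium, and by 0.67 ± 0.14 (adjusted p = 0.000851) and 0.41 ± 0.14 (adjusted p = 0.0411) in AAD medium. The Cebpg-/- call in normal medium was lost without WT normal replicates 2 or 3 or Cebpg-/- normal replicates 2 or 3 (range 0.31 to 0.59), and that in AAD medium without WT AAD replicates 2 or 3 or Cebpg-/- AAD replicate 3 (range 0.26 to 0.49, with 0.26 without Cebpg-/- AAD replicate 3). The 3 other Ldhb probe sets gave 0.48 to 0.68 in Atf4-/- cells in normal medium.

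Pdk1 encodes a kinase that closes the entry of pyruvate into mitochondrial oxidation. In WT arrays Pdk1 stood at 6.83, 7.10 and 6.89 in normal medium and 7.08, 7.16 and 7.16 in AAD medium. Values of Pdk1 in Atf4-/- arrays were 6.16, 6.43 and 6.41 in normal medium and 6.34, 6.66 and 6.65 in AAD medium. Pdk1 in Cebpg-/- arrays read 6.79, 6.78 and 7.07 in normal medium and 6.90, 7.003 and 7.07 in AAD medium. The Atf4-/- arrays lay below all others. Pdk1 was lower in Atf4-/- cells by 0.61 ± 0.11 (adjusted p = 0.000151) in normal and 0.58 ± 0.11 (adjusted p = 0.000221) in AAD medium, and differed by -0.06 ± 0.11 in Cebpg-/- cells. A dimmer probe set gave -0.67 in normal medium and another -0.08. AAD changed Pdk1 by 0.19 ± 0.11 (adjusted p = 0.218) in WT and 0.22 ± 0.11 (adjusted p = 0.324) in Atf4-/- cells, and with the replicate block by 0.19 ± 0.06 (adjusted p = 0.0239) and 0.22 ± 0.06 (adjusted p = 0.0366).

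In AAD medium the levels kept most of these differences. Between Atf4-/- and WT cells 25 of 31 members were called, 9 higher and 16 lower, against 54.3% of all genes tested, 31.4% higher and 22.9% lower. The same direction in both media was called for 24 members, 9 higher and 15 lower, which is 77.4% of the 31 against 38.5% of all genes tested, and 88.9% of those called in normal and 96% of those called in AAD medium. Between Cebpg-/- and WT cells 12 were called in AAD medium, 6 higher and 6 lower, against 29.5% of all genes, 16.1% higher and 13.4% lower. There the same direction in both media was called for 10 members, or 32.3% against 18% of all genes. The comparisons in normal and in AAD medium share no arrays, but they are not independent. Residuals of arrays with the same genotype and replicate number correlated across the media, at 0.304 to 0.687 in 9 of 9 pairs. The same direction in both media is therefore not a separate replication.

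The knockouts were also compared with each other, after the data had been seen. In normal medium 23 of 31 members differed, 7 higher and 16 lower in Atf4-/- than in Cebpg-/- cells, against 49.6% of all genes tested, 27.4% higher and 22.2% lower. In AAD medium it was 19, with 4 higher and 15 lower, against 49.1%, 27.7% and 21.4%. Of the 13 enzymes from hexokinase to pyruvate kinase, 10 were lower and 1 higher in normal medium, and 9 were lower and 1 higher in AAD medium. Ldha was lower in Atf4-/- cells by 1.00 ± 0.07 (adjusted p = 1.49e-08) and Pkm by 0.80 ± 0.07 (adjusted p = 1.54e-07) in normal medium. Ankrd37, Adm and Egln3, which were higher than WT in both knockouts, differed between the knockouts by -0.05 ± 0.22 (adjusted p = 0.858), 0.12 ± 0.23 (adjusted p = 0.694) and 0.22 ± 0.20 (adjusted p = 0.371).

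Promoters with HIF cores lay on both sides of WT. Of the 16 members lower in Atf4-/- cells in normal medium, 15 held ACGTG or GCGTG and 10 held ACGTG. Of the 11 higher members 9 had a promoter in the table, and 8 of these held either core and 5 held ACGTG. Eno2 and Tpi1 held neither, on opposite sides of WT. The 4 members not called all held either core, and 2 of them held ACGTG. Either core was thus common among members whatever their direction, against 58.8% of the tested genes. Because 29 of the 32 genes held either core, its counts could hardly differ between the sides. Whether a core goes with direction was not tested.

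Of 13 other genes of HIF control tested, 5 rose under AAD in WT cells and none fell, or 38.5% called against 28.2% of all genes. In Cebpg-/- cells 1 was called, against 21.9% of all genes. In Atf4-/- cells limma called 0, where 4.7% of all genes were called, so that a count of 0 lies near the share over all genes. At an unadjusted p under 0.05 there was 1 in Atf4-/- cells, where all genes gave 16.4%. The rises were in Cited2, which encodes a HIF-induced competitor for the coactivator p300, and in Siah2, Ogt, Vhl and Arnt, named because the count is small. Cited2 rose by 1.74 ± 0.11 (adjusted p = 1.17e-08) in WT cells and by 0.98 ± 0.11 (adjusted p = 1.09e-05) in Cebpg-/- cells. Its response was lower in Atf4-/- than in WT cells by 1.65 ± 0.16 (adjusted p = 4.68e-06). In normal medium Cited2 already stood above WT, by 1.17 ± 0.11 (adjusted p = 3.45e-07) in Atf4-/- and 0.79 ± 0.11 (adjusted p = 0.000117) in Cebpg-/- cells, and in AAD medium it stood below WT in Atf4-/- cells by 0.49 ± 0.11 (adjusted p = 0.00162). In normal medium 5 of the 13 were higher and 2 lower in Atf4-/- than in WT cells, or 53.8% called against 51.5% of all genes. The 2 were Siah2, which encodes a ubiquitin ligase for prolyl hydroxylases and was lower by 1.43 ± 0.09 (adjusted p = 3.08e-09), and Epas1, the gene of a second HIF alpha subunit, lower by 0.44 ± 0.11 (adjusted p = 0.00281).

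Among 42 other hypoxia targets tested, 13 rose (31%, against 14.3% of all genes) and 2 fell (4.76%, against 13.9%) under AAD in WT cells. In Atf4-/- cells 6 rose (14.3%, against 2.67%) and 1 fell (2.38%, against 2.03%), and in Cebpg-/- cells 10 rose (23.8%, against 11.7%) and none fell, where 10.3% of all genes did. Edn1, which encodes the vasoconstrictor endothelin, rose by 1.56 ± 0.19 (adjusted p = 1.29e-05) in WT cells, and its response in Atf4-/- cells was lower by 2.19 ± 0.27 (adjusted p = 5.46e-05). In AAD medium the difference of Atf4-/- from WT cells in its level was -2.22 ± 0.19 (adjusted p = 1.03e-07). Rora, a nuclear receptor gene, rose by 1.92 ± 0.11 (adjusted p = 4.57e-09) in WT and by 0.91 ± 0.11 (adjusted p = 0.000196) in Atf4-/- cells. Ccng2, a cyclin gene, rose by 1.74 ± 0.14 and 0.90 ± 0.14, and Bhlhe40, a repressor gene, by 1.46 ± 0.07 and 0.82 ± 0.07 in WT and Atf4-/- cells. In normal medium Rora and Ccng2 already stood above WT in Atf4-/- cells, by 0.51 ± 0.11 (adjusted p = 0.00132) and 1.38 ± 0.14 (adjusted p = 7.5e-07), and Bhlhe40 below it, by 0.89 ± 0.07 (adjusted p = 3.07e-08). In 8 of the 42 (19%, against 7.04% of all genes) the response was lower in Atf4-/- than in WT cells, and in 1 (2.38%, against 5.73%) it was higher. In normal medium 13 were higher (31%, against 30.2%) and 15 lower (35.7%, against 21.4%) in Atf4-/- cells.

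Of 24 other glycolytic isoforms and side branch enzymes, 2 rose and 2 fell under AAD in WT cells, or 16.7% called against 28.2% of all genes. Between Atf4-/- and WT cells limma called 0 in response, against 12.8% of all genes. At an unadjusted p under 0.05 there were 2, where all genes gave 25.2%. In normal medium 5 were higher and 9 lower in Atf4-/- cells, and the 58.3% called lay near the 51.5% of all genes. Of 20 genes of pyruvate use and gluconeogenesis, 2 rose and 2 fell under AAD in WT cells, or 20% against 28.2%. Pdk4, another kinase of pyruvate dehydrogenase, rose by 2.63 ± 0.31 (adjusted p = 8.77e-06) in WT, by 1.52 ± 0.31 (adjusted p = 0.00953) in Atf4-/- and by 2.47 ± 0.31 (adjusted p = 2.81e-05) in Cebpg-/- cells. In normal medium 6 of these 20 were higher and 4 lower in Atf4-/- cells, and the 50% called again lay near the share over all genes. The 4 lists hold genes of each pathway that are not members and overlap in no gene with them.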

How the data were processed

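The deposited log2 values of 45101 probe sets on 18 arrays were, per the submitters' processing notes, made by the authors with RMA; its version is not given in the sources here. They ran from 2.15 to 14.56, with array medians of 5.21 to 5.27, and were used without further normalization. No probe-level spread was used, so the 3 arrays per group limit the precision.

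The probe annotation gave 34958 probe sets a single gene symbol, 932 several and 9211 no listing. Names were updated by Entrez identifier (34754 matched). For each gene the brightest single-gene probe set was used. Genes were left out where no group mean reached 4.65 (percentile 40 over all values). A limma 3.58.1 model (R 4.3.3) of group means, with 12 residual degrees of freedom, gave 10 comparisons, and 2 between the knockouts were added after seeing the data. The fit was tested on simulated data.

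The members, gene lists and tests were chosen with earlier results of these data known. Members called with an absolute change of at least 0.5 are given for every array, with Hif1a, Vegfa and Gapdh in any case. Of each list, up to 4 genes with a change of at least 1 under AAD in WT or between responses are named, and other genes named were chosen after their values were seen.

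Replicate numbers paired the arrays of a genotype across media: residuals of the same number correlated at 0.304 to 0.687 (9 of 9 pairs), those of other numbers at -0.555 to 0.0944. Same-numbered arrays of other genotypes correlated at -0.242 to 0.192. Alternatives were another normalization or centring, other filters, the mean of a gene's probe sets, an intensity trend, fits of the compared groups alone, replicate blocks and leaving out each array.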

Additional observations from a re-analysis of the deposited data

Results flagged for a closer look

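The response to AAD differed between genotypes, in the limma test of that difference itself, for 4 members between Atf4-/- and WT cells (12.9%, against 12.8% of all genes) and for 1 between the knockouts (3.23%, against 5.3%), shares near or below those over all genes. In Atf4-/- cells the response of Kdm3a differed from that of WT by -1.25, of Ndrg1 by -1.16, of Hk2 by -0.57 and of Pfkfb4 by 0.69, the last a call lost in 9 of 12 fits without 1 array. The response of Kdm3a differed by -0.68 between Atf4-/- and Cebpg-/- cells. With the replicate block within genotype, 6 members were called between Atf4-/- and WT cells (19.4%, against 23.8% of all genes). Between the knockouts that block gave 4 (12.9%, against 13.3%). Between Cebpg-/- and WT cells limma called 0 without the block, against 0.226% of all genes. With the block 4 were called there (12.9%), a share above the 1.38% of all genes. With 3 arrays a group, single arrays were not tested for distance from their group.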

How the results depend on the processing

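No called result changed direction under the alternatives run. With the replicate block within genotype, members called under AAD numbered 13 in WT, 9 in Atf4-/- and 12 in Cebpg-/- cells. For the responses they numbered 6 for Atf4-/- minus WT and 4 each for Cebpg-/- minus WT and Atf4-/- minus Cebpg-/-. All 25 single calls stayed past the threshold with this replicate block. The response of Atf4-/- minus Cebpg-/- gave 2 with the mean of all probe sets and 2 with arrays centred on the median.

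Without 1 array the counts ranged from 7 to 9 for AAD in WT, 0 to 3 in Atf4-/- and 6 to 8 in Cebpg-/- cells, from 3 to 4, 0 to 1 and 1 to 2 for the responses of Atf4-/- minus WT, Cebpg-/- minus WT and Atf4-/- minus Cebpg-/-, and from 25 to 27 and 9 to 12 for Atf4-/- and Cebpg-/- cells against WT in normal medium. In AAD medium they were 22 to 25 and 9 to 12, and between the knockouts 22 to 23 in normal and 15 to 18 in AAD medium. Of 888 single calls so refitted, 101 were lost.

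Of 143 single calls, 8 were lost with arrays centred on the median, 13 of 142 with the mean of all probe sets, 3 with an intensity trend, 8 without a filter, 12 with the compared groups alone and 6 after quantile normalization. The replicate block by number within the medium, where the numbers do not pair the arrays, lost 18 of 118. It lowered the calls over all genes to 1927 from 3204 for Cebpg-/- minus WT in normal medium and to 1677 from 4050 in AAD medium. The block within genotype raised them to 1523 from 645 for AAD in Atf4-/- cells, 4663 from 3013 in Cebpg-/- cells, and for the responses to 3270 from 1752, 189 from 31 and 1824 from 728. For AAD in Atf4-/- cells the fit of the compared groups alone gave 329, and for the response of Cebpg-/- minus WT an intensity trend gave 56. Values near the limit of 4.65 (Slc16a3, Eno2, Aldoc) and Bnip3l, Gpi1, Eno1 and Car9 limit what can be said of those genes.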
